A study of Mus musculus with 6 samples.

Results

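The HA-Tex10 intervals described here are those that lie close together: each starts in a 1 Mb window, on a fixed grid counted from the first base of chromosomes 1 to 19, that holds 10 or more intervals of the deposited HA-Tex10 list. There were 1028 such members in 60 dense windows, out of 4129 HA-Tex10 intervals on these chromosomes and 4331 in the whole list. Of the 2473 windows of chromosomes 1 to 19, 1435 held at least 1 interval and 2.43% were dense. Members were chosen by the number of HA-Tex10 intervals per window, a measured value; that number is given as a description, and no test between dense and other windows was made on it.

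The study mapped Tex10 and the histone mark H3K4me3 by chromatin immunoprecipitation and sequencing in primordial germ cell-like cells (PGCLCs) of the mouse, made in culture to resemble the founders of the germline, on day 2. All samples came from untreated cells of strain 129Sv/J in which Tex10 carries an HA tag at its C-terminus. The labels give 2 samples for the HA antibody, 2 for H3K4me3 and 2 of input, and do not say whether 2 samples of 1 kind came from separate cultures. The analysis rests on 1 deposited list of intervals per antibody, with positions on mm10 and no score, so no value here has a spread between replicates and the depth behind an interval is unknown.

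Tex10 is a nuclear protein known for work on ribosome assembly and, in pluripotent stem cells, for association with enhancers and super-enhancers of active genes. H3K4me3 marks the transcription start sites (TSS) of active and poised genes, mostly at promoters rich in CG dinucleotides. A mouse megabase can be crowded in different ways: by many unrelated housekeeping genes with their promoters, by a gene family copied side by side such as histone or zinc finger genes, or by a tandem array of ribosomal RNA genes or satellite DNA in which a sequence recurs many times.

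Both kinds of crowding occurred among the dense windows, and their sequences show the difference. In 3 windows, the pair with the longest stretch of identical sequence, among members of at most 300 bp, is printed first, because these members share sequence with one another. Capitals mark the shared stretch, and all sequences are of the plus strand of GRCm38 (mm10). On chromosome 9 the shared stretch was 238 bases, on chromosome 6 it was 159, and in the fullest window of chromosome 8 it was 171.
Chromosome 9 member A, chr9:3007880-3008138: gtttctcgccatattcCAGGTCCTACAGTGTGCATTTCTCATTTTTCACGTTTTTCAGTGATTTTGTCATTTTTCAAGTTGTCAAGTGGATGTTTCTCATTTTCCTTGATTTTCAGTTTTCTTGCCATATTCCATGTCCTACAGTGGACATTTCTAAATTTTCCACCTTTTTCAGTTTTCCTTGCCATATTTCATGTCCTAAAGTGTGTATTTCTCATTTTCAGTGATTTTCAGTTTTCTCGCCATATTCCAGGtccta
Chromosome 9 member B, chr9:3014704-3014941: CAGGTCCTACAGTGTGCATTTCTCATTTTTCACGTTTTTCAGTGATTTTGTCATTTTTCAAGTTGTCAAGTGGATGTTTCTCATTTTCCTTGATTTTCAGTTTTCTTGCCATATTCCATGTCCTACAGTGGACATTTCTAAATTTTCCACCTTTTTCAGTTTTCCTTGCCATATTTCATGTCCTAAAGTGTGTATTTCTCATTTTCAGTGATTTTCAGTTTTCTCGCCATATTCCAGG
Chromosome 6 member A, chr6:47674003-47674278: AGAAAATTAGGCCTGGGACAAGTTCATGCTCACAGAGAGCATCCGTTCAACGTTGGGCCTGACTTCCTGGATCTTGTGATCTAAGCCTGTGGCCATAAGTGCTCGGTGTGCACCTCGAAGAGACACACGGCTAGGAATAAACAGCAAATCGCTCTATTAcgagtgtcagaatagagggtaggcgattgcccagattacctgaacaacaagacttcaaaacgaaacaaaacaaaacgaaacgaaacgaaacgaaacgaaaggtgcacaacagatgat
Chromosome 6 member B, chr6:47759268-47759509: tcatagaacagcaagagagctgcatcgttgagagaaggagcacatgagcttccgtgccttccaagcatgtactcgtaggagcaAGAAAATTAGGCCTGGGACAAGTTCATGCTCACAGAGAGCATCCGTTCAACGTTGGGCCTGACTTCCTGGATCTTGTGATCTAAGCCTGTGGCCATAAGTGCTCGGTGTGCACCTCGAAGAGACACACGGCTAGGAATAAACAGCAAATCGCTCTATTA
Chromosome 8 member A, chr8:20682358-20682600: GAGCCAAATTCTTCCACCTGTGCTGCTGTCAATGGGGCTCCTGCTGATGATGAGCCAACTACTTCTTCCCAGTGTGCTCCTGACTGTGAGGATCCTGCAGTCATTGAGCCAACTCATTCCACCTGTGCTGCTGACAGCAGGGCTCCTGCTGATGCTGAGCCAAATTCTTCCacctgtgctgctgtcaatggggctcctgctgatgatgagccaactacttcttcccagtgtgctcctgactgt
Chromosome 8 member B, chr8:20701374-20701602: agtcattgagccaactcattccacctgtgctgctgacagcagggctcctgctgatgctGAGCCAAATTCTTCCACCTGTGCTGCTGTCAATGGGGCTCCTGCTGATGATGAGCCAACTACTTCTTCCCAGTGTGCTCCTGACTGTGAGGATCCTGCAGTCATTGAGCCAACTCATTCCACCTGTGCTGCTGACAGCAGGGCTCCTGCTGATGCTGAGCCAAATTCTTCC

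By contrast, the next 4 members lie at TSS of unrelated coding genes and are single-copy. The median number of copies of their 32-base words is 1 in the assembled chromosomes of the reference. They show what a member of the promoter kind looks like. Capitals mark the letters CCAAT, searched on both strands. TATAAA, which can share an end base with CCAAT, was searched in the same way. The member at Rfxank, which encodes a subunit of the factor that drives MHC class II genes, held CCAAT at 2 places. The members at Use1 (a SNARE protein), Ccdc130 and Hist1h4b (a histone H4 gene) held neither motif.
Rfxank member, chr8:70139097-70139381: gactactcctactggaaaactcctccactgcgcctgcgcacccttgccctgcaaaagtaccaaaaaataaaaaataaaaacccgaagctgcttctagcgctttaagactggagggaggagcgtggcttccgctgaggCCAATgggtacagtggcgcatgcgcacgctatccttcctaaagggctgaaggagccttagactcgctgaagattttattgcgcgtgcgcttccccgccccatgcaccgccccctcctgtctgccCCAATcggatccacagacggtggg
Use1 member, chr8:71366996-71367250: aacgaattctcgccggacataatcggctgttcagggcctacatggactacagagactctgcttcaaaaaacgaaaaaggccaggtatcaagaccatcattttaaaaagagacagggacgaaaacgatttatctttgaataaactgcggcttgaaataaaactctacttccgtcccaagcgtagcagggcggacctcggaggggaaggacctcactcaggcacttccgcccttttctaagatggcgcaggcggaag
Ccdc130 member, chr8:84270221-84270444: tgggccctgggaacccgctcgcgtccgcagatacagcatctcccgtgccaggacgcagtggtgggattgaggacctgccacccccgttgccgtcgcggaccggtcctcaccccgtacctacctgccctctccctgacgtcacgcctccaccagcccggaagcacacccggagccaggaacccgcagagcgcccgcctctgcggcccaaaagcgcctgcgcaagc
Hist1h4b member, chr13:23756877-23757172: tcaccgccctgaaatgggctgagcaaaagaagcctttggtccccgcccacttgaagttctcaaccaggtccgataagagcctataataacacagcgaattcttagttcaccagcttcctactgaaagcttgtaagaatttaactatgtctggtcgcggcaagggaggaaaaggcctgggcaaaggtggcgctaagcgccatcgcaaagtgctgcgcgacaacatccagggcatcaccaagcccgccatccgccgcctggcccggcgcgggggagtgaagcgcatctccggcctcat

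In the central 200 bases, CCAAT on either strand occurred in 20.2% of the 1028 members and in 22.8% of all 4129 intervals. TATAAA occurred in 5.64% of members and 3.63% of all intervals. Among the 393 members of windows filled with repeated sequence the TATAAA share was 7.63%, and among the 370 members at coding TSS in the other dense windows it was 2.97%. A match of letters is a description and not a binding site.

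Across all 1028 members, 666 met an H3K4me3 interval by at least 1 bp, which is 64.8% (95% Wilson interval 61.8 to 67.6), where 69.3% of all HA-Tex10 intervals on chromosomes 1 to 19 did. A coding TSS lay within 1 kb of 446 members (43.4%, interval 40.4 to 46.4), against 42.9% of all intervals. Repeated words were counted over chromosomes 1 to 19, X and Y of the reference genome, and copies on unplaced scaffolds were not counted. For 425 members, over 50% of their 32-base words occurred more than once in these chromosomes, and such members are called mostly repeated. That is 41.3% of members (interval 38.4 to 44.4) beside 38.2% of all intervals. A member of at least 90% identity over at least 80% of the shorter interval, in the same window, existed for 199 members, or 19.4%, where the share over all intervals was 7.97%. These intervals cover counting error only, and neighbours in a window are not independent. On H3K4me3, coding TSS and repeated sequence the shares lay within 5 percentage points of all HA-Tex10 intervals, which include the members themselves. Of the 3101 intervals outside dense windows 70.8% met H3K4me3 (interval 69.2 to 72.4). A coding TSS lay near 42.7% of them, and 37.2% were mostly repeated. The share with a similar member depends on how many intervals a window holds, which the rule fixed.

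Widths ran from 1 to 1795 bp with a median of 259.5 bp among members, and the median outside dense windows was 229 bp. Of the members, 62 were under 50 bp wide. The median GC content was 55.7% for members and 60.1% for the 3101 intervals outside.

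**Figure D1:**
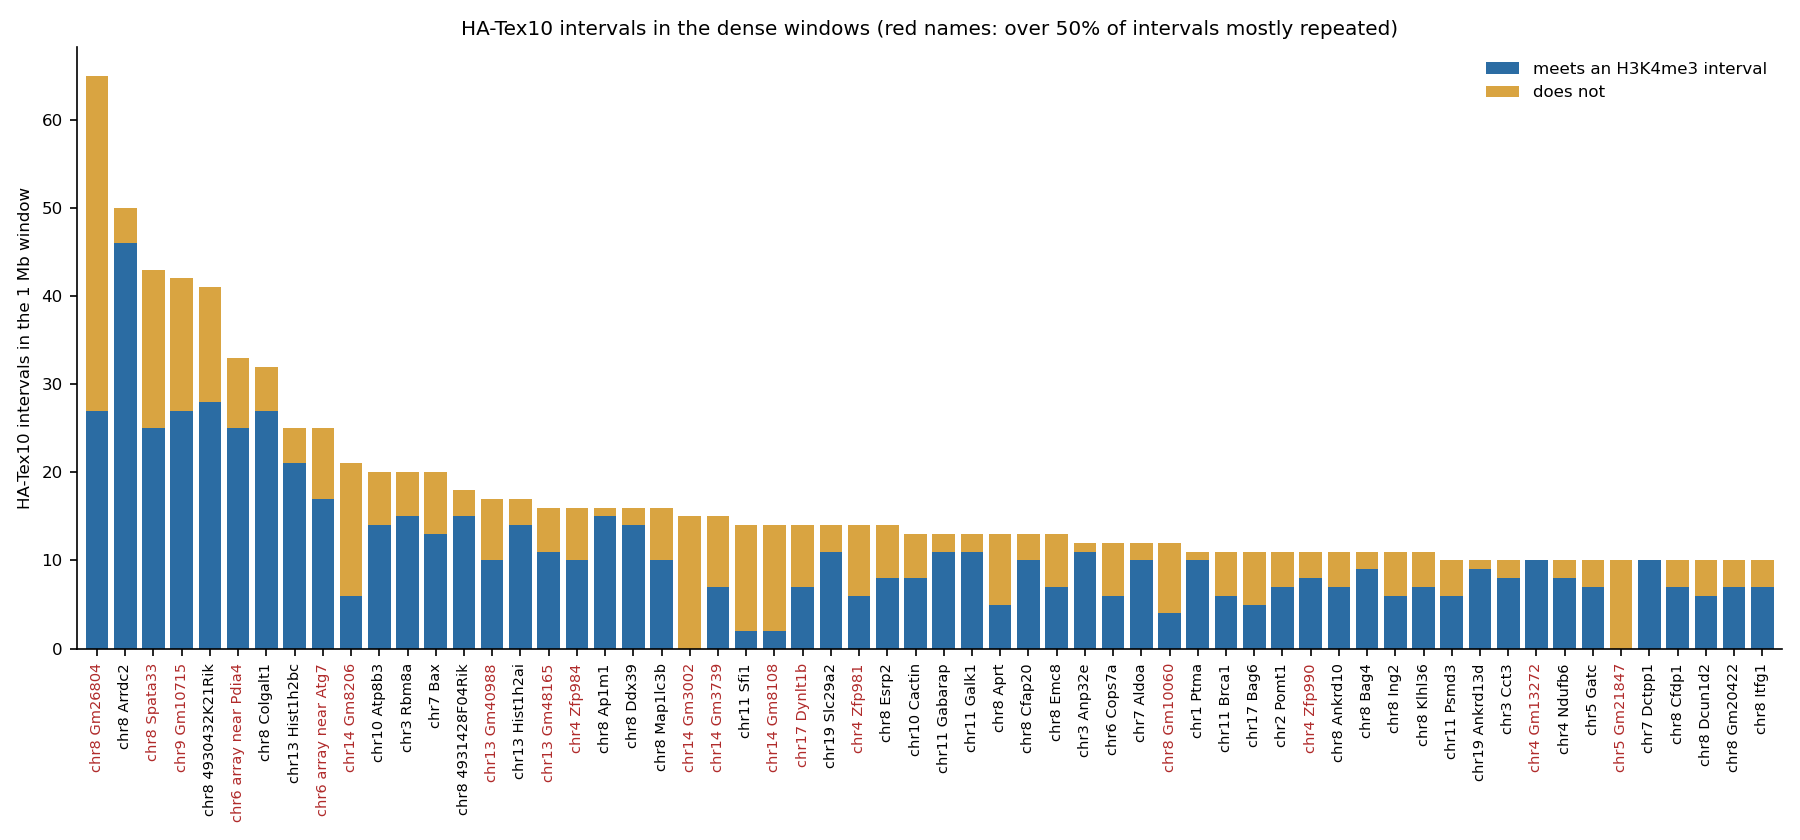
Bars give the number of HA-Tex10 intervals in each of the 60 dense windows, split into those that meet an H3K4me3 interval (blue) and those that do not (yellow), with each window named by its chromosome and first named gene and red names for windows in which over 50% of members are mostly repeated. The counts fall from 65 to 10, and the red windows lie along the whole range.

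Dense windows were then divided by their sequence, a division made after the data were seen. In 18 windows, holding 393 members, over 50% of members were mostly repeated, and these are called repeat windows here. The other 42 windows held 635 members and are called single-copy windows. That name covers windows with up to 50% mostly repeated members, such as 10 of 20 in the Hist2 window of chromosome 3, 8 of 17 and 9 of 25 in the chromosome 13 histone windows and 4 of 10 in the chromosome 4 window of Topors. Among members of repeat windows 51.4% met H3K4me3 (interval 46.5 to 56.3), 19.3% lay at a coding TSS and 44.3% had a similar member in their window. In single-copy windows 73.1% met H3K4me3 (interval 69.5 to 76.4), 58.3% lay at a coding TSS and 3.94% had a similar member. The median GC content was 50.3% in repeat windows and 58.3% in single-copy windows. Since the windows were split by the repeated share, that share itself, 91.3% against 10.4% of members, follows from the split. The share with a similar member is another measure of repeated sequence, so its difference is tied to the split too.

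The 2 kinds of window also differed in what else they hold. Single-copy windows had a median of 33.5 coding genes and 49 H3K4me3 intervals per megabase, where the median window of chromosomes 1 to 19 had 5 and 7. Repeat windows had a median of 12.5 coding genes and 32 H3K4me3 intervals. In repeat windows the median share of words that recur within the same megabase was 40.6%, against 3.71% in single-copy windows and 5.03% over 2403 windows. Duplicated stretches, found by aligning each window to itself (at least 1 kb, 90% identity), covered a median of 49.3% of repeat windows and 0.981% of single-copy windows. Such a stretch held 334 of the 393 members of repeat windows and 25 of the 635 others. Over 10% of the window was duplicated in 17 repeat windows and 5 single-copy windows. Recurring words and duplicated stretches also measure repeated sequence, so these differences are tied to the split.

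**Figure D2:**
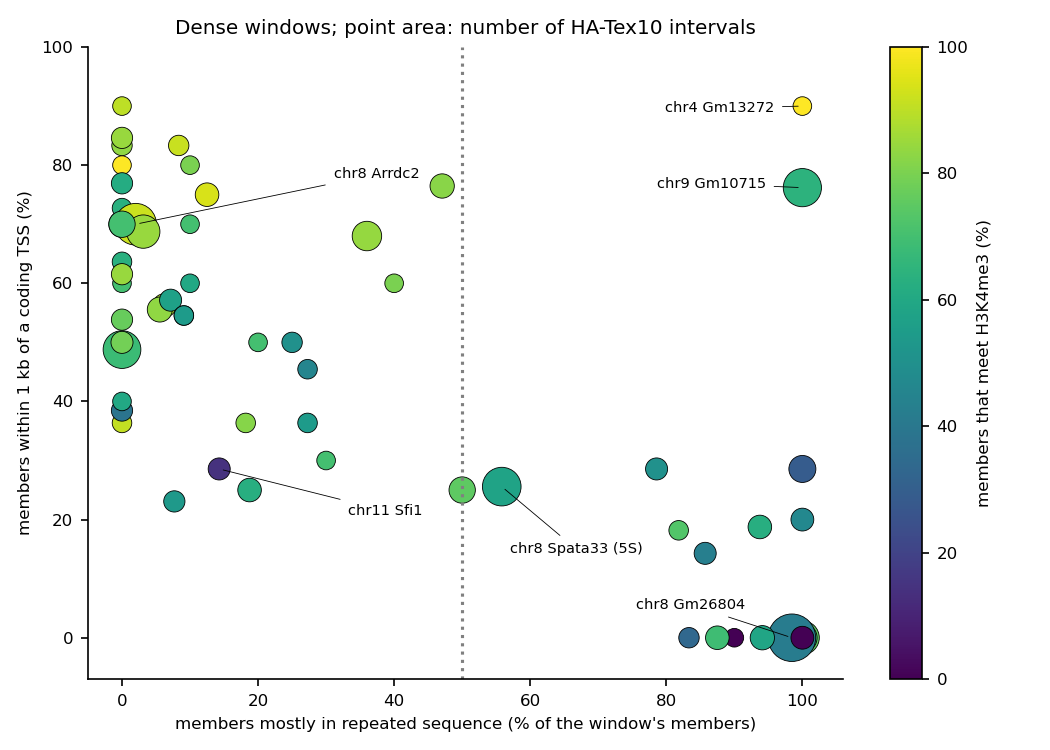
Each point is a dense window, placed by the share of its members that are mostly repeated (horizontal, %) and the share within 1 kb of a coding TSS (vertical, %), coloured by the share that meet H3K4me3, with area for the number of members and a dotted line at 50%. To the left of the line the coding TSS share runs from 23.1% to 90%, and to the right only the chromosome 4 window of Gm13272 and the chromosome 9 window of Gm10715 lie above 30%.

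Place within genes went with the H3K4me3 share in the same order inside and outside dense windows. At coding TSS 88.1% of the 446 members met H3K4me3, beside 91.1% of 1325 intervals outside. At TSS of non-coding genes the share was 56.8% of 88 members, in coding exons 52.9% of 34, in coding introns 41.5% of 135, and in bodies of non-coding genes 33.3% of 69. Outside all genes 49.2% of 256 members met the mark, against 55.8% of 967 intervals outside dense windows. For intervals outside dense windows the shares were 61.8% at non-coding TSS, 61.0% in coding exons, 53.4% in coding introns and 53.1% in non-coding gene bodies. The coding intron class leans in part on 1 predicted coding gene, Gm20388, annotated over chr8:119910841-124345722. Its body held all 13, 16, 13 and 43 members of successive windows from chr8:120000001. Of these, 10, 10, 8 and 8 were classed as coding intron, and 0 in each window as outside all genes. A member there can be classed as intronic with no other gene around it. Members at a coding TSS had a median offset of -27.5 bp from it, negative values being upstream, and 179 of the 446 contained it. Mostly repeated members met the mark in 51.5% of cases and the remaining 603 members in 74.1%.

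**Figure D3:**
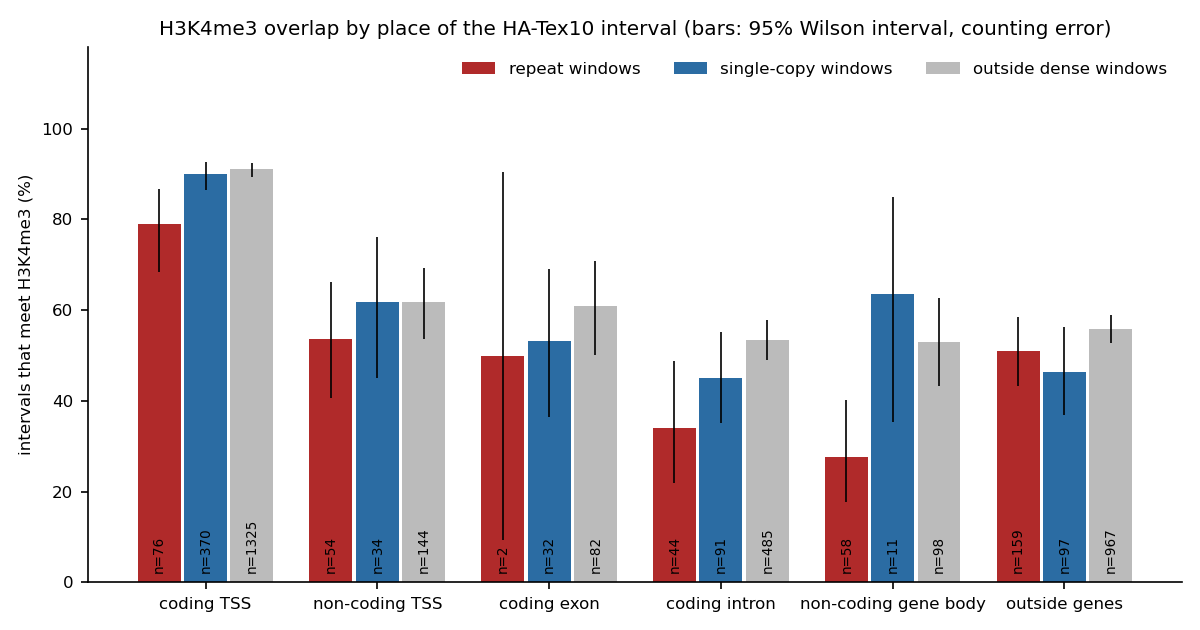
Bars give the share of HA-Tex10 intervals that meet an H3K4me3 interval (%), by the place of the interval, for repeat windows, single-copy windows and intervals outside dense windows, with 95% Wilson intervals for counting error and the number of intervals in each bar. Bars at coding TSS stand highest in all 3 sets, at 78.9%, 90% and 91.1%.

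Members could share a marked interval. They met 579 H3K4me3 intervals, of which 80 (13.8%) were met by 2 or more members, where 5.41% of the 2087 intervals met outside dense windows were. This share moves with how close HA-Tex10 intervals lie, which is the rule itself. The most crowded was a 4112 bp interval at Ptma, the gene of the chromatin protein prothymosin alpha, with 4 members of 38 to 581 bp. Marked intervals with 3 members lay at Tsacc, Topors, Ankrd10, Ssbp4, Ier2 and Junb, among others. Junb encodes a subunit of the AP-1 transcription factor and Ier2 is an immediate early gene.

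Chromosome 8 held 22 of the 60 windows and 446 of the 1028 members, which is 61.5% of its 725 HA-Tex10 intervals. Chromosomes 12, 15, 16 and 18 held no dense window. In H3K4me3 intervals chromosome 8 did not lead: it had 1929, below chromosome 2 (2157), chromosome 11 (2083), chromosome 7 (2065) and chromosome 4 (1996). Outside its dense windows, 34.1% of the 352 coding genes of chromosome 8 with H3K4me3 also had HA-Tex10 within 1 kb. The other autosomes ranged from 7.69% on chromosome 12 to 14.6% on chromosome 15. The number of copies of chromosome 8 in these cells was not checked, since the lists give no read depth, and every count on chromosome 8 here, its 22 windows included, has that limit. The cause of the higher density was not tested.

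On H3K4me3-marked coding genes, the share with HA-Tex10 within 1 kb was 14.3% over chromosomes 1 to 19 and 33.0% (410 of 1244) in dense windows. Single-copy windows of chromosome 8 reached 48.1% (176 of 366), and those of other chromosomes 25.1% (189 of 752). The mark itself lay at 75.2% of the 1655 coding genes of dense windows, where 62.6% of all coding genes had it. Per 100 H3K4me3 intervals there were 14.8 HA-Tex10 intervals over all windows, 40.2 in the single-copy windows of chromosome 8, 21.4 in those of other chromosomes and 75.4 in repeat windows. The HA-Tex10 side of these ratios was fixed by the rule.

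**Figure D4:**
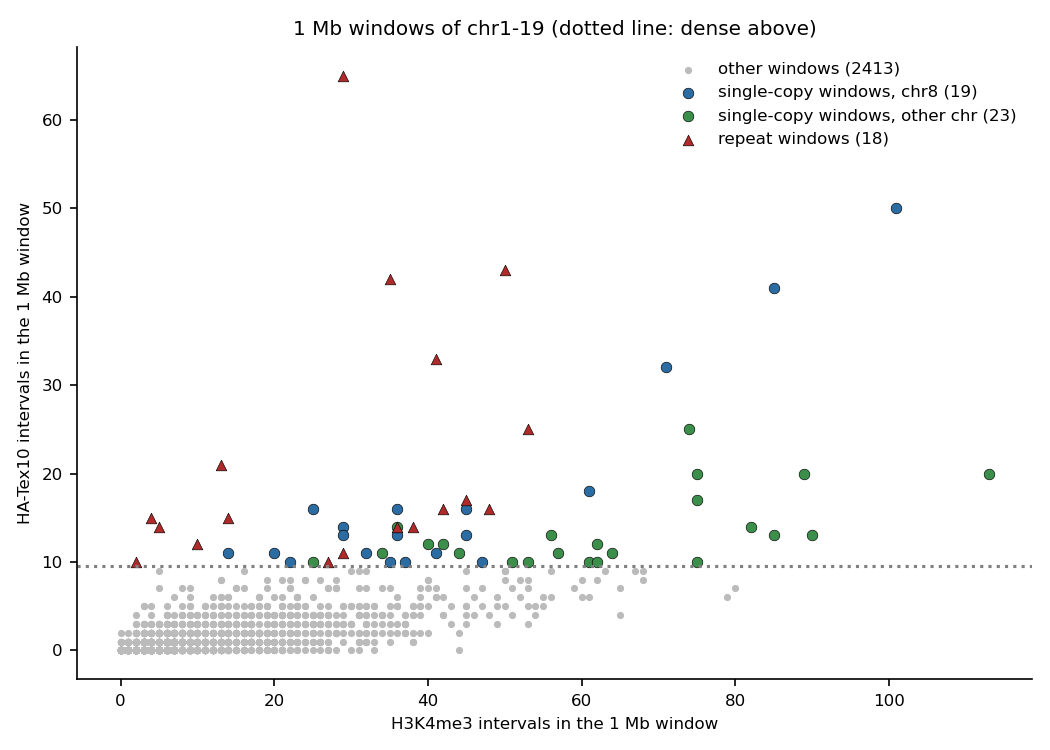
Each point is a 1 Mb window of chromosomes 1 to 19, by its number of H3K4me3 intervals (horizontal) and of HA-Tex10 intervals (vertical), with the dotted line between 9 and 10. Single-copy windows of chromosomes other than 8 (green) lie at 25 or more H3K4me3 intervals, those of chromosome 8 (blue) start at 14, and repeat windows (red) start at 2.

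Next to the threshold, the 12 windows with exactly 10 intervals had 70.8% of them on H3K4me3, 59.2% at a coding TSS and 25.8% mostly repeated. The 13 windows with 9 intervals, just outside, had 83.8%, 69.2% and 20.5%. Of the dense windows, 13 held 20 or more members, 437 in all, and 33 lay beside another dense window.

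The fullest window was chr8:20000001-21000000, with 65 members of 125 to 1263 bp (median 334 bp). Of these, 64 were mostly repeated, 26 had a similar member in the window and 27 met H3K4me3, while none lay at a coding TSS. No coding gene among its 6 had H3K4me3. Its members fell in the lincRNA gene Gm26804 (14 members), in the pseudogene 2610005L07Rik (8 members, 2 with H3K4me3) and in the pseudogene 6820431F20Rik (5 members), with 39 outside all genes. The annotated body of Gm26804 overlaps those of both pseudogenes, so a member can count for more than 1 of them. Duplicated stretches covered 60.4% of the megabase, the longest of 96871 bp, and all 65 members lay in one. For 14309 words the next copy lay 156 bp away, the most common distance. The 1 kb centred on a member matched itself best at a shift of 156 bp for 13 members. The median identity at the best shift over the 65 members was low, 31.9%, beside 31.4% in chr8:70000001-71000000, where 1 member was mostly repeated. The sequences of chromosome 8 members A and B above come from this window and both met H3K4me3. The 693.744 kb that hold the members include 150000 bp of unsequenced gap.

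Adjacent to it, chr8:19000001-20000000 held 12 members, of which 10 were mostly repeated and 4 met H3K4me3. Beta-defensin genes, which encode antimicrobial peptides, were its leading named family with 12 genes, and no defensin gene had a member or H3K4me3 within 1 kb of its TSS. Members of the pair of windows were copies of each other: 5 of the first had a similar member among 9 of the second, at up to 99.2% identity.

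In chr8:70000001-71000000 there were 50 members and only 1 was mostly repeated. H3K4me3 was met by 46, and 35 lay at a coding TSS. The window held 101 H3K4me3 intervals and 50 coding genes, 45 of them marked and 29 with HA-Tex10. Members overlapped TSS of Arrdc2, Homer3 (a synaptic scaffold), Kxd1, Lsm4 (a U6 snRNP protein), Mast3 (a microtubule-associated kinase) and Ncan (neurocan, of brain matrix). The Mast3 gene body held 6 members of 37 to 325 bp, all with H3K4me3. Pik3r2, Jund, Upf1 and Ell also had a member within 1 kb. Ncan was the one of these 29 genes without H3K4me3 within 1 kb.

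Beside it, chr8:71000001-72000000 had 32 members, 27 with H3K4me3 and 22 at a coding TSS. HA-Tex10 lay at 21 of its 29 marked coding genes, among them Colgalt1 (a collagen glycosyltransferase), Mrpl34 (mitochondrial ribosome), Mvb12a, Slc27a1 (fatty acid transport), Tmem221 and Use1. A duplicated stretch covered 27.3% of the window, yet 1 member lay in it. Zinc finger genes Zfp709, Zfp882 and Zfp617 each had a member within 1 kb. The third window of this run, chr8:72000001-73000000, held 16 members, 15 on H3K4me3 and 12 at a coding TSS. Of its 14 marked coding genes 13 had HA-Tex10, including Ap1m1 and Eps15l1 (vesicle coats), Med26 (Mediator), Rab8a, Sin3b (a corepressor) and Smim7. Olfactory receptor genes, its largest named family, had neither HA-Tex10 nor H3K4me3.

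In chr8:123000001-124000000 there were 43 members, 25 of them on H3K4me3. The window contains 41 n-R5s genes, which encode 5S ribosomal RNA, the ribosome component transcribed by RNA polymerase III. These genes spanned chr8:123538786-123622046 with a median spacing of 1703 bp. Within 1 kb of the array lay 22 members of 27 to 1036 bp (median 252.5 bp), 7 of which overlapped an n-R5s gene. The others overlapped none of these 41 genes, and the 22 had a median distance of 137 bp to the nearest n-R5s gene. The window held 51 annotated rRNA genes. Those with other symbols, such as Gm23647 and Gm25212, were left out of the overlap and distance counts. H3K4me3 was met by 8 of the 22, and 10 H3K4me3 intervals lay there. Among the 21 members elsewhere in the window 17 met H3K4me3 and 11 lay at a coding TSS, at genes such as Spata33, Spg7 (a mitochondrial protease), Tcf25, Rpl13, Chmp1a and Nup133.

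Chromosome 9 began with a window, chr9:3000001-4000000, that held 42 members, all mostly repeated, 40 of them with a similar member. Of these, 41 lay within 100 kb at the chromosome's first assembled bases. H3K4me3 was met by 27 and a coding TSS lay within 1 kb of 32. Those coding genes were predicted genes of unknown role (Gm10715, Gm10717, Gm10718, Gm10719, Gm10721 and Gm11168), which lie inside the repeats. The lincRNA gene Gm26870 contained 40 of the members. The 1 kb of sequence centred on a member matched itself best at a shift of 234 bp for 33 of the 42. That is the unit length of mouse major satellite DNA. Identity at the best shift ran from 31.7% to 94.1% over the 42 members, with a median of 71.2%. The 40 members in Gm26870 were 231 to 1316 bp wide (median 438.5 bp), where the median of all intervals was 232 bp. Words of chromosome 9 members A and B had medians of 35 and 33 copies in the assembled chromosomes of the reference, with unplaced scaffolds not counted.

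The window chr8:84000001-85000000 held 41 members, none of them mostly repeated. H3K4me3 was met by 28, and 20 lay at a coding TSS. It had 85 H3K4me3 intervals and 36 marked coding genes, 15 with HA-Tex10. Members overlapped TSS of 4930432K21Rik, Calr (calreticulin, a chaperone of the endoplasmic reticulum), Cc2d1a, Ccdc130, Dnase2a (a lysosomal nuclease) and G430095P16Rik. A group of 6 members of 76 to 585 bp lay in the overlapping bodies of Dnase2a and Mast1, 4 of them on H3K4me3 and none within 1 kb of a coding TSS. Nfix, which encodes a nuclear factor, held 3 members in its body and 1 met H3K4me3. Klf1, the erythroid Kruppel-like factor, had a member 826 bp from its TSS.

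**Figure D5:**
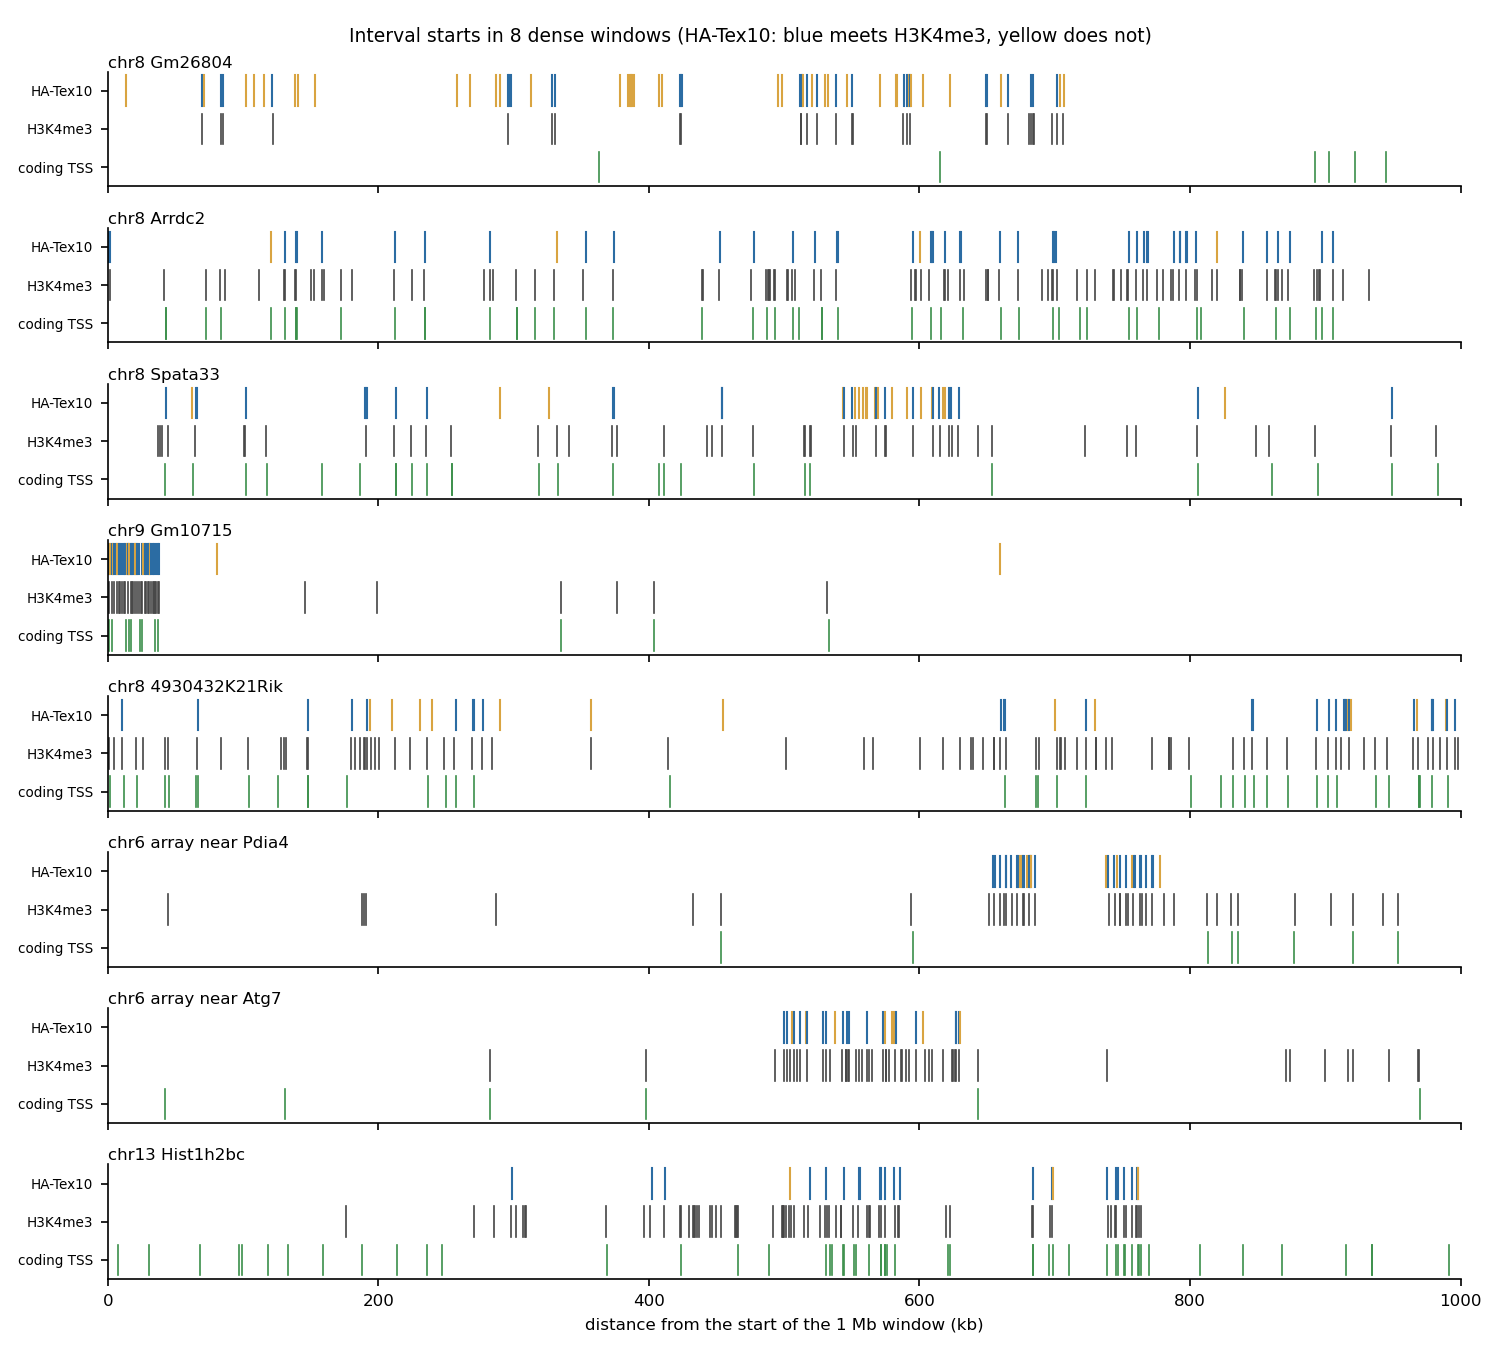
Ticks give the starts of HA-Tex10 intervals (blue meets H3K4me3, yellow does not), H3K4me3 intervals (black) and coding TSS (green) against the distance from the start of the window (kb) in 8 dense windows. Members of the Arrdc2 window spread over the megabase with the TSS, while 41 members of the Gm10715 window lie at its left end and those of the Pdia4 and Atg7 windows lie in 124 kb and 131 kb with no coding TSS among them.

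Both dense chromosome 6 arrays lay outside all annotated genes. In chr6:47000001-48000000 all 33 members fell within 123.727 kb between Ezh2, the Polycomb methyltransferase gene, and Pdia4, and 50000 bp of that stretch are unsequenced gap. All were mostly repeated, 27 had a similar member, and 25 met H3K4me3. None lay at a coding TSS, and the median GC content was 62.2%. Of all words there, 83.4% had another copy downstream, most often 4321 bp away. Members of 13 to 1795 bp met 18 H3K4me3 intervals. The window chr6:114000001-115000000 held 25 members within 130.714 kb between Hrh1, a histamine receptor gene, and Atg7, an autophagy gene. There, 20 had a similar member and 17 met H3K4me3. The most common distance to the next copy was 2445 bp, and the longest duplicated stretch was 139081 bp. In both arrays members met the mark with no coding TSS near them. All members of both were mostly repeated. Which copy a read came from is thus uncertain, as for mostly repeated members of other windows.

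The lowest H3K4me3 shares came from 5 windows. In chr5:15000001-16000000 none of 10 members met the mark, and the window had 2 H3K4me3 intervals in all. Of its members 4 lay in the non-coding gene Gm21847, and 3 of these also in Gm30613, a non-coding gene annotated within it. Another 4 lay outside all genes. The window has 3 genes of the Speer family, which are spermatogenesis-associated. A count of 0 in 10 allows a share of up to 27.8% (Wilson upper bound). In chr14:3000001-4000000 none of 15 members met the mark, which allows up to 20.4%. There, 99.6% of the window was duplicated, all 15 members were mostly repeated, and 5 lay in the predicted gene Gm3002. In chr14:4000001-5000000 2 of 14 met the mark, with 4 members within 1 kb of TSS of Gm8108, Gm3264, 2610042L04Rik and Gm3252. The window chr14:6000001-7000000 had 6 of 21 on the mark, 5 of its members lay in Gm8206, and 96.6% of it was duplicated. The exception among the 5 was chr11:3000001-4000000, where sequence was mostly single-copy: 2 of 14 members were mostly repeated and 2 met H3K4me3. All 14 lay within 72.583 kb, 9 of them in Sfi1, a centrosome gene, and 6 in Drg1, a GTPase gene whose annotated body overlaps that of Sfi1, so that a member can count for both. Of its 18 marked coding genes only Sfi1 had HA-Tex10 at a TSS.

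The remaining repeat windows held copied gene families. On chromosome 4, chr4:145000001-146000000 (11 members, 8 on H3K4me3), chr4:146000001-147000000 (14 members, 6 on H3K4me3) and chr4:147000001-148000000 (16 members, 10 on H3K4me3) carry a zinc finger family of DNA-binding repressors. Members lay within 1 kb of Zfp990 and Gm13212, of Zfp981 and Zfp993, and of Zfp984, Zfp991 and Rex2. In chr4:146000001-147000000 the lincRNA gene Gm26573 held 11 members, and in chr4:147000001-148000000 the lincRNA gene C230088H06Rik held 11. The member at Rex2 lay in the bodies of both lincRNA genes. In chr4:88000001-89000000 all 10 members were mostly repeated, all met H3K4me3 and 9 lay at coding TSS. Interferon alpha genes lead the families of that window, as counted by symbol. The TSS were those of predicted genes such as Gm13272, Gm13276, Gm13287, Gm13288, Gm13289 and Gm13290, whose symbols do not tell their family. Copies there recurred most often 2923 bp apart.

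On chromosome 13, chr13:65000001-66000000 and chr13:66000001-67000000 held 16 and 17 members, 11 and 10 on H3K4me3 and none at a coding TSS. Duplicated stretches covered 66.5% and 83.2% of them. Vomeronasal receptor genes, which detect pheromones, were their leading named family, and no coding member of it had HA-Tex10. The vomeronasal pseudogene Vmn2r-ps104, in the second window, had HA-Tex10 and H3K4me3 within 1 kb. Of the HA-Tex10 members 4 lay in the lincRNA gene Gm40988, 3 in Gm48165 and 3 in the pseudogene Zfp640. The window chr14:7000001-8000000 held 15 members, all mostly repeated and 7 on H3K4me3, with TSS of Gm3739, Gm3512 and Gm10406 within 1 kb. Of its members 5 had a similar member in the window from 6 Mb, at up to 100% identity. In chr17:6000001-7000000 7 of 14 members met the mark and 6 lay in the lincRNA gene Gm26848. Genes with a member at the TSS were Dynlt1b (a dynein light chain), Gtf2h5 (a TFIIH subunit), Serac1 and Ezr (ezrin).

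Histone genes filled 3 windows. Clustered histone genes are unusual in being expressed in S phase and in lacking introns. In dense windows lay 59 of the 67 coding genes of the list, 56 had H3K4me3 within 1 kb and 34 of those had HA-Tex10, beside 14.3% of all marked coding genes and 33.0% of those in dense windows. Genes in dense windows lie where HA-Tex10 is frequent by the rule, so the rule itself raises their shares above those of all genes, for every gene group given here. Of the 8 genes outside dense windows 5 had HA-Tex10. By class, HA-Tex10 lay at 8 of 11 H4 genes, 10 of 15 H2A genes, 9 of 15 H2B genes, 6 of 12 H3 genes and 1 of 6 H1 genes. Several genes can share a member: 27 members had a histone TSS as their nearest coding TSS, and 22 of them met H3K4me3.

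The window chr13:23000001-24000000 held 25 members, 21 on H3K4me3 and 17 at a coding TSS, with HA-Tex10 at 19 of its 31 histone genes. Hist1h2bc, Hist1h2bg, Hist1h4b, Hist1h4c and Hist1h4d had a member over the TSS, and Hist1h1c had one 84 bp away. The Hist1h4b sequence above is one of these. In chr13:21000001-22000000 there were 17 members, 14 on H3K4me3, and HA-Tex10 at 13 of 18 histone genes. Hist1h2ai, Hist1h2an, Hist1h2ao, Hist1h2bq, Hist1h4k and Hist1h4n had a member over the TSS, and zinc finger genes Zscan12 and Zfp184 had a member within 1 kb too. Between these windows, 5 members of the first were similar to 3 of the second, at up to 100% identity. The Hist2 window, chr3:96000001-97000000, had 20 members, 15 on H3K4me3 and 10 mostly repeated, with HA-Tex10 at 2 of 10 histone genes, Hist2h3c2 and Hist2h2aa2. Other genes there were Rbm8a (exon junction complex), Txnip, Gpr89 and Gja5 (a gap junction protein).

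Small RNA genes were counted in the same way. Dense windows held 146 of the 386 tRNA genes, 35 of them with HA-Tex10 within 1 kb, where 21.0% of all tRNA genes had one. H3K4me3 lay within 1 kb of 119, where the share of all tRNA genes was 67.1%. By window, 9 of 45 had HA-Tex10 in the chromosome 13 window from 23 Mb, 8 of 52 in that from 21 Mb, 7 of 25 in the Hist2 window and 8 of 18 in the chromosome 11 window from 69 Mb. Of the members, 21 lay within 1 kb of a tRNA gene start and 9 overlapped a tRNA gene. For the 60 rRNA genes of dense windows 23 had HA-Tex10, where 7.48% of all rRNA genes had it, and 13 had H3K4me3, where 5.92% of all did. Outside dense windows 1 of 261 rRNA genes had HA-Tex10, so the 5S array made up nearly the whole count. For 51 snRNA genes, 12 had HA-Tex10 beside 2.63% of all snRNA genes and 22 of 1241 outside dense windows, and 15 had H3K4me3 beside 4.41% of all. They included Rnu1b6, a U1 gene of the Hist2 window, Rnu7, which acts in histone mRNA processing, and Rnu2-10, a U2 gene. Since these genes have near-identical copies, which copy a read came from is uncertain.

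Other fixed families gave few members. Zinc finger genes had 59 coding members in dense windows, 17 with HA-Tex10, where 9.13% of all coding genes and 25.4% of those in dense windows (421 of 1655) had it. Outside dense windows 31 of 356 zinc finger genes had it. Others of these were Zfp688, Zfp747, Zfp319, Zfp687, Zfp866, Zfp963 and Zfp90. Coding ribosomal protein genes numbered 10, all with H3K4me3, and 6 of them had HA-Tex10, among them Rpl13a, Rpl12, Rpl18, Rpl19 and Rpl13. Outside dense windows 27 of 82 had it. Of 3 heat shock genes, Dnajb1, a co-chaperone gene, had HA-Tex10, and 13 of 72 coding ones outside dense windows did. Neither HA-Tex10 nor H3K4me3 lay at any of 20 coding olfactory receptor genes, 14 coding vomeronasal receptor genes or 13 coding defensin genes. With pseudogenes counted, 3 of 42 vomeronasal receptor genes had HA-Tex10 and 6 had H3K4me3. Outside dense windows 0 and 2 of 519 did. Predicted coding genes with Gm names numbered 156, 34 with HA-Tex10, beside 25 of 996 outside dense windows. MicroRNA genes numbered 94, 6 with HA-Tex10, where 1.63% of all did. Hox, protocadherin, Mup, Prame, Dux and Sp100 family genes had no member of their family in a dense window.

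Further single-copy windows of chromosome 8 formed runs. Here and in the windows after them, counts such as 7 of 10 give the members that met H3K4me3, and the genes named have a TSS within 1 kb of any member, marked or not. The members counted need not lie at the genes named. In chr8:83000001-84000000 14 of 16 members met H3K4me3 and 9 lay at coding TSS, at Ddx39 (an RNA helicase), Dnajb1, Gm10644, Ndufb7 (respiratory complex I), Asf1b (a histone chaperone) and Adgre5. The window chr8:85000001-86000000 had 10 members, 7 on the mark, at Itfg1, Man2b1, Orc6 (origin recognition), Phkb, Vps35 (retromer) and Tnpo2. A run of 4 windows followed before the 5S window, each with 5 to 10 members on the mark. In chr8:119000001-120000000 it was 7 of 11, with Klhl36, Tldc1, Usp10, Taf1c (a polymerase I factor), Mbtps1 and Gm20388. In chr8:120000001-121000000 it was 7 of 13, with 8 members in the body of Gse1, 1 of them at a coding TSS and 5 on the mark. Emc8, Gm27021, 6430548M08Rik and Cox4i1 (cytochrome c oxidase) were its other named genes. In chr8:121000001-122000000 it was 10 of 16, with Map1lc3b (an autophagy marker), Mthfsd, Foxl1 and Banp. Of its members 3 lay in Klhdc4, and all 3 were mostly repeated. In chr8:122000001-123000000 it was 5 of 13, with Aprt, Galns, Trappc2l, Zfpm1 (a GATA cofactor) and Piezo1 (a mechanosensitive channel), whose body held 3.

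Elsewhere on chromosome 8, members again gathered at unrelated genes. In chr8:11000001-12000000 7 of 11 members met the mark and 8 lay at coding TSS, at Ankrd10, Col4a1 and Col4a2 (collagen IV chains that share a promoter), Ing1 (a chromatin reader), Cars2 and 1700016D06Rik. The window chr8:13000001-14000000 had 6 of 10 on the mark, at Dcun1d2, Tdrp, Pcid2, Tmco3, Cul4a (a ubiquitin ligase scaffold) and Rasa3. In chr8:25000001-26000000 9 of 11 met it. A coding TSS lay within 1 kb of 4, at Bag4, Letm2, Lsm1, Ash2l (a core subunit of H3K4 methyltransferase complexes) and Plekha2. Of the 11, 3 lay in the body of Fgfr1, an FGF receptor gene. The window chr8:47000001-48000000 held 11 members, 6 on the mark, with 8 coding genes, among them Ing2, Rwdd4a, Trappc11, Wwc2 and Stox2. In chr8:69000001-70000000 7 of 10 met it, at Gm20422, Zfp866, Zfp963, Atp6v1b2 (a proton pump subunit), Slc18a1 and Tssk6.

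In chr8:95000001-96000000 10 of 13 members met H3K4me3, at Cfap20, Usb1 (U6 processing), Zfp319 and Cnot1 (the deadenylase scaffold). The window chr8:105000001-106000000 had 15 of 18, and HA-Tex10 at 15 of 41 marked coding genes, with 4931428F04Rik, Acd (telomere shelterin), Atp6v0d1, D230025D16Rik, Enkd1 and Fhod1. In chr8:106000001-107000000 it was 8 of 14, at Esrp2, Sntb2, Zfp90, Cdh1 (E-cadherin, at 46 bp), Dus2 and Smpd3. The window chr8:111000001-112000000 had 7 of 10, at Cfdp1, Glg1, Tmem170, Znrf1, Tmem231 and Pdpr.

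Single-copy windows of other chromosomes were the most gene-rich. In chr7:45000001-46000000 there were 20 members, 113 H3K4me3 intervals and 67 coding genes, both the highest of the dense windows. H3K4me3 was met by 13 and a coding TSS lay near 14, at Bax (apoptosis), Ftl1 (ferritin), Ntf5, Rpl18, Ruvbl2 (a chromatin remodelling ATPase) and Snrnp70 (U1 snRNP). In chr7:126000001-127000000 10 of 12 members met the mark, at Aldoa (glycolysis), Atxn2l, Bola2, Cdipt, Sgf29 (an H3K4me3 reader of SAGA) and Slx1b. All 10 members of chr7:127000001-128000000 met it, at Dctpp1, Gm42742, Pagr1a, Zfp688, Zfp747 and Srcap, the remodeller that deposits H2A.Z. In chr10:80000001-81000000 it was 14 of 20, at Atp8b3, Gpx4 (a lipid peroxidase), Midn, Mob3a, Plekhj1 and Polr2e (an RNA polymerase subunit). In chr10:81000001-82000000 8 of 13 members met the mark, at Cactin, Dapk3, Slc39a3, Thop1, Zfr2 and Eef2 (elongation factor). Duplicated stretches covered 34.0% of that window and held 0 of its members.

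On chromosome 11, 11 of 13 members of chr11:69000001-70000000 met the mark, at Gabarap, Plscr3, Polr2a (the largest polymerase II subunit), Pfas, Eif5a and Slc2a4. In chr11:98000001-99000000 it was 6 of 10, at Psmd3 (proteasome), Rpl19, Zpbp2 and Wipf2. The window chr11:101000001-102000000 had 6 of 11, at Brca1 (DNA repair), Coasy, Nbr1, Retreg3, Tubg1 (gamma-tubulin) and Ezh1 (Polycomb). In chr11:116000001-117000000 11 of 13 met it, at Galk1, Jmjd6, Mfsd11, Srsf2 (a splicing factor), Mrpl38 and H3f3b (histone H3.3). Mettl23, also there, held 3 members in its body, all on the mark.

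Chromosome 1 had 1 dense window, chr1:86000001-87000000, with 10 of 11 members on H3K4me3. A coding TSS lay within 1 kb of 4, at Ptma and Ncl (nucleolin, of the nucleolus), and 6 lay outside all genes. In chr2:32000001-33000000 7 of 11 members met H3K4me3, at Pomt1, Swi5, Dnm1 (dynamin), Tor2a, Golga2 and Slc25a25. In chr3:88000001-89000000 8 of 10 members met the mark, at Cct3 (a chaperonin subunit), Tsacc, Lmna (lamin A/C), Syt11, Pmf1 and Naxe. The window chr3:95000001-96000000 had 11 of 12, at Anp32e (an H2A.Z chaperone), Aph1a, Gabpb2, Pip5k1a, Prpf3 and Setdb1, an H3K9 methyltransferase gene. In chr4:40000001-41000000 it was 8 of 10, at Ndufb6, Smim27, Smu1, Topors (a ubiquitin and SUMO ligase) and Aptx. Topors held 3 members of 91 to 256 bp, all on the mark.

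In chr5:115000001-116000000 7 of 10 members met H3K4me3. Of the 10, 3 lay at a coding TSS, at Gatc, Triap1, Cox6a1 and Mlec. The window chr6:124000001-125000000 had 6 of 12 on the mark, at Cops7a (COP9 signalosome), Eno2 (enolase), Ptpn6, Grcc10, C1rl and Tpi1. In chr17:35000001-36000000, part of the MHC region, it was 5 of 11, at Bag6, Mrps18b, Ppp1r10, Msh5 (meiotic recombination), H2-Q7 (an MHC class I gene) and Ppp1r18. In chr19:4000001-5000000 9 of 10 members met the mark, at Ankrd13d, Coro1b, Gm21992, Ndufv1, Rbm14 and Rad9a. The window chr19:5000001-6000000 had 11 of 14, at Slc29a2, Fibp, Cfl1 (cofilin), Drap1, Kat5 (the Tip60 acetyltransferase) and Sf3b2. Across the 42 single-copy windows the H3K4me3 share of members ran from 14.3% to 100%, with a median of 70%, and across the 18 repeat windows from 0% to 100%, with a median of 54.1%, so the ranges overlapped.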

How the data were processed

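Intervals of HA-Tex10 and H3K4me3 were used as the authors deposited them, as positions on mm10 with no score. Per the submitters' processing notes, Bowtie2 2.3.4.3, SAMtools 1.9, MACS2 2.1.2 and HOMER were used, with no order given; how reads that fit several places were handled is not given in the sources used here. Python 3.11.15, pandas 2.3.3, BLAST+ 2.17.0 (similar members, alignments of at least 30 bp) and minimap2 2.31 (duplicated stretches) did the rest on GRCm38 with GENCODE M21 and RefSeq tRNAs, checked on simulated data.

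Members and gene lists were chosen with earlier results of these data known. Named genes were, per window, up to 6 coding genes with a TSS within 1 kb of a member, by distance and then symbol, or the gene holding most members, plus fixed families. Other genes named (such as Mast1, Nfix, Junb or Fgfr1) were chosen after their values were seen. Shares have 95% Wilson intervals. No tests were made: each antibody has 1 list, with depth unknown. Some genes and 1 pair of sequences are not reported here.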

Additional observations from a re-analysis of the deposited data

Results flagged for a closer look

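Outside chromosomes 1 to 19, which the members were limited to, 3 windows also held 10 or more HA-Tex10 intervals. The unplaced scaffold Un_JH584304 held 78, more than any window of the autosomes, between positions 311 and 114322, and 48 of them met one of its 56 H3K4me3 intervals. The X window from 170000001 to 171000000 held 11, of which 6 met H3K4me3. The Y window from 90000001 to 91000000 held 13, of which 4 met H3K4me3.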

How the results depend on the processing

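The number of dense windows was 39 at 12 or more intervals, 23 (599 intervals) at 15 or more, and 32 when mostly repeated intervals were left out before counting. The H3K4me3 share was 60.2% when 50% of the interval had to be covered, 70.1% for members wider than the median, and 74.1% without mostly repeated members. The coding TSS share was 38.4% at 15 or more intervals, 60.0% without mostly repeated members, 48.3% within 2.5 kb and 53.4% with the TSS of all genes. The mostly repeated share was 36.6%, 46.4% and 53.4% at 8, 12 and 15 or more intervals, 52.6% without chromosome 8, 38.1% with 50-base words and 32.9% when over 90% of words had to recur. The similar share was 25.3% without chromosome 8. Leaving out the 18 repeat windows, chosen after seeing the data, gave 73.1% on H3K4me3, 58.3% at coding TSS, 10.4% mostly repeated and 3.94% similar. Leaving out members under 50 bp was also chosen after seeing the data. Of 44 values under alternatives, 22 moved by more than their counting interval, or by over 1.5 times for counts. With the grid shifted by 500000 bp, 767 members stayed in a dense window. No paired analysis was possible because the deposited lists hold 1 set of intervals per antibody and no replicate. Depth is unknown, so an interval missing from a list may reflect limited reads.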

Other observations

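Windows rich in H3K4me3 were dense in some cases only. Of the 84 windows with 42 or more H3K4me3 intervals, the median of the dense windows, 31 were dense (36.9%), where 2.43% of all windows were. Because the cutoff was that median, the number of dense windows above it was set in advance. Only the number of other windows above it was free. The 7 windows with most H3K4me3 intervals, 82 to 113 each, were all dense. The next, chr15:76000001-77000000, was not: it had 80 H3K4me3 intervals and 48 marked coding genes with 7 HA-Tex10 intervals.

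In 230 windows at least as many 32-base words recurred within the window as in the repeat window with the lowest share, 11.3%. Of these, 23 were dense (10%, beside 2.43% of all windows) and 64 held no HA-Tex10 interval. The cutoff was taken from the 18 repeat windows, which are dense, so all 18 are among the 23. The 10% is thus partly fixed by that choice.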
